A study of Rattus norvegicus with 12 samples.

Results

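Arhgdib, Lcp2, Gna15 and Lyn are 4 genes best known from blood cells, and their transcripts were measured here in cultured rat hippocampal neurons. They were found by the gene name printed for each probe in the array files, which gave 6 of the 41012 probes of the array: 1 for Arhgdib, 2 for Lcp2, 1 for Gna15 and 2 for Lyn. The 4 genes are among 35699 names that the array's probes carry. They were selected on their measured differences between treated and vehicle arrays, so their levels and differences are given below as a description, with no test.

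The study profiled total RNA from high-density hippocampal cultures of E18.5 Sprague-Dawley rat embryos. At 10 to 13 days in vitro the cultures received, for 48 h, vehicle (CTL, labelled 0.1% DMSO, while the text of the study names water), tetrodotoxin (TTX) at 0.5 to 1 µM, which blocks voltage-gated sodium channels, or bicuculline (BC) at 20 µM, which blocks GABA-A receptors. TTX silences action potentials and BC raises firing by removing inhibition, and the comparison asks which transcripts follow chronic activity. Each group had 4 arrays of 1 colour (Cy3), and each of 4 slides held 1 array of every group. Slides 1 and 3 were grouped here as 1 slide set and slides 2 and 4 as the other, a grouping that the sample labels do not give. The sources do not say whether the RNA samples came from separate cultures, and if they did not, the errors and p values below cover technical spread alone. Dissociated cultures hold glia and other cells besides neurons, and in such bulk RNA fewer cells of a type and less RNA per cell cannot be told apart.

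The 4 proteins work in early steps of signaling downstream of immune receptors. Arhgdib encodes RhoGDI2 (also called LyGDI or D4-GDI), an inhibitor that holds small GTPases in the cytosol in their inactive form and is most abundant in blood cells. Lcp2 encodes SLP-76, an adaptor phosphorylated by Syk family kinases that gathers Vav, Nck, Gads and phospholipase C gamma at the T cell and platelet receptors. Lyn encodes a Src family tyrosine kinase that phosphorylates B cell and Fc receptors and is also found in brain. Gna15 encodes G-alpha-15, a Gq class subunit that couples many receptors to phospholipase C beta and is largely restricted to blood-forming cells and some epithelia.

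The probe letters below are those on the array, and they show which stretch of each transcript a value stands for. All 6 probes are 60 bases long. The first 3 are printed whole and the first 30 bases are given of the others, all in lower case because no part of them is singled out.
Gna15 (A_44_P438060): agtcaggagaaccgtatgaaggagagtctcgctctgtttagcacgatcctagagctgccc
Lcp2, dimmer probe (A_43_P13117): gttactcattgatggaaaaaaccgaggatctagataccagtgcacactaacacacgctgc
Lyn, dimmer probe (A_44_P316239): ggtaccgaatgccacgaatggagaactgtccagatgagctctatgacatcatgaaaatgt
Arhgdib (A_44_P283941): ttctgttcagaaacttattcttccactggt
Lcp2, brighter probe (A_44_P864560): catctcgtgatggctgggaaacaaaaggaa
Lyn, brighter probe (A_44_P273821): ctctcctagtctgtcaggactttatgagac
On the rat build rn4, as the array files give it, the Gna15 probe lay at chr7:9682899-9683764 on the plus strand, a span of 866 bases for a probe of 60. The Lcp2 probes lay at chr10:19065025-19065084 (dimmer) and chr10:19066133-19066192 (brighter), with starts 1108 bases apart. The Lyn probes lay at chr5:17052740-17052799 (dimmer) and chr5:17053643-17053702 (brighter), with starts 903 bases apart, and the Arhgdib probe lay at chr4:173967912-173967971 on the minus strand. An rn4 annotation was not used here, so no exon or UTR is assigned to them.

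Each gene had a pattern of its own. Arhgdib stood high with BC and low with TTX. Lcp2 stood higher with both treatments than with vehicle, Gna15 stood low with BC alone, and Lyn stood higher with TTX. Signals are log2 values after quantile normalization over the 12 arrays, differences are log2 units with the standard error (SE) of a linear model over all 12 arrays, and no probe's level is set against that of another probe.

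**Figure D1:**
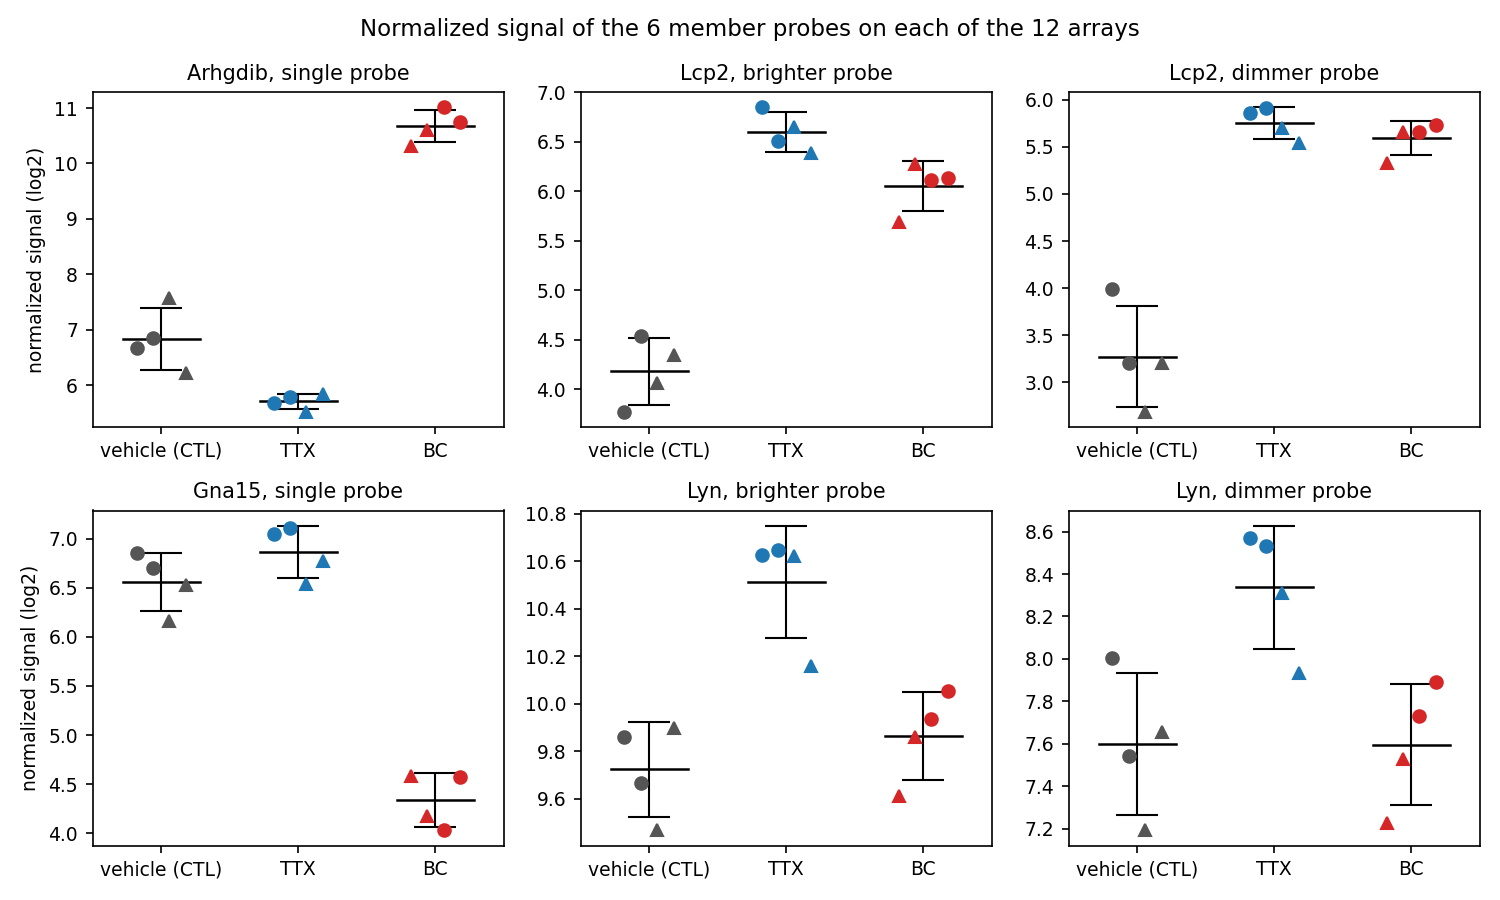
Normalized signal (log2) of each of the 6 probes of Arhgdib, Lcp2, Gna15 and Lyn on the 4 vehicle (CTL), 4 TTX and 4 BC arrays. Each point is 1 array (circles and triangles are the 2 sets of slides), and the lines are the group mean ± SD. Arhgdib in BC lies at 10.32 to 11.01, above every CTL array, and Gna15 in BC lies at 4.03 to 4.58, below every CTL array.

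Arhgdib, the RhoGDI2 gene, read 6.67, 6.84, 7.58 and 6.23 on the CTL arrays, 10.32, 10.61, 11.01 and 10.74 on the BC arrays and 5.68, 5.79, 5.52 and 5.83 on the TTX arrays (replicates 1 to 4 of each). The 3 groups did not overlap, and the order was BC, CTL, TTX. The BC mean was 3.84 (SE 0.25) above CTL, a 14.3-fold difference, and the TTX mean was 1.13 (SE 0.25) below CTL. Between TTX and BC the difference was 4.97 (SE 0.25), or 31.3-fold. On each slide the BC array read 3.03 to 4.34 above its CTL array, and the TTX array read below it by a difference between -1.75 and -0.71. Among all genes called higher with BC, each represented by its brightest probe, Arhgdib ranked 4 of 762 by size. It ranked 305 of the 963 called lower with TTX. Ranks here and below come from the contrasts that chose the genes.

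Lcp2, the SLP-76 gene, had a pair of probes. The brighter one read 3.77, 4.54, 4.06 and 4.35 with CTL, 6.85, 6.51, 6.65 and 6.38 with TTX and 5.69, 6.27, 6.11 and 6.13 with BC. All treated arrays lay above all CTL arrays, and the TTX arrays lay above the BC arrays by a gap of 0.11 at the nearest pair. The TTX mean was 2.42 (SE 0.18) above CTL, 5.35-fold, and the BC mean was 1.87 (SE 0.18) above CTL, 3.66-fold. Among the genes called higher, Lcp2 ranked 3 of 530 by size with TTX and 71 of 762 with BC. These ranks rest on dim CTL signals, where the size depends on the background treatment.

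The dimmer Lcp2 probe read 3.99, 3.20, 2.68 and 3.21 with CTL, 5.86, 5.91, 5.71 and 5.54 with TTX and 5.33, 5.66, 5.66 and 5.73 with BC. It was well above background, by the scanner software's own flag, on 1 of 4 CTL arrays and on all TTX and BC arrays. Its difference from CTL was 2.48 for TTX and 2.33 for BC, each with an SE of 0.23. The TTX and BC arrays overlapped here, with a difference of 0.16 (SE 0.23), where the brighter probe kept them apart by 0.55 (SE 0.18). Over the 12 arrays the Lcp2 probes had a Pearson r of 0.93, as a description.

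Gna15, the G-alpha-15 gene, read 6.85, 6.70, 6.16 and 6.53 with CTL, 7.05, 7.11, 6.54 and 6.77 with TTX and 4.58, 4.18, 4.03 and 4.57 with BC. Every BC array lay below every CTL and TTX array, while CTL and TTX overlapped. The BC mean was below CTL by a difference of -2.22 (SE 0.19), and CTL exceeded BC 4.67-fold. The TTX difference was 0.31 (SE 0.19), with the within-slide differences between 0.00 and 0.61. Among the genes called lower with BC, Gna15 ranked 5 of 524 by size.

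Lyn, the Src family kinase gene, also had a pair of probes. The brighter one read 9.86, 9.67, 9.47 and 9.90 with CTL, 10.63, 10.65, 10.62 and 10.16 with TTX and 9.61, 9.86, 9.94 and 10.05 with BC. The TTX arrays lay above all others, and CTL and BC overlapped. The TTX mean was 0.79 (SE 0.14) above CTL, 1.73-fold, and the BC difference was 0.14 (SE 0.14). By size Lyn ranked 262 of the 530 genes called higher with TTX.

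The dimmer Lyn probe read 8.0, 7.54, 7.19 and 7.65 with CTL, 8.57, 8.53, 8.31 and 7.93 with TTX and 7.23, 7.53, 7.73 and 7.89 with BC. Its TTX difference was 0.74 (SE 0.20), close to that of the brighter probe, but its TTX and CTL ranges overlapped by 0.07. Its BC difference was 0.00 (SE 0.20), with the BC array above its CTL array on 2 slides and below it on the other two. The Lyn probes had a Pearson r of 0.95 over the 12 arrays.

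**Figure D2:**
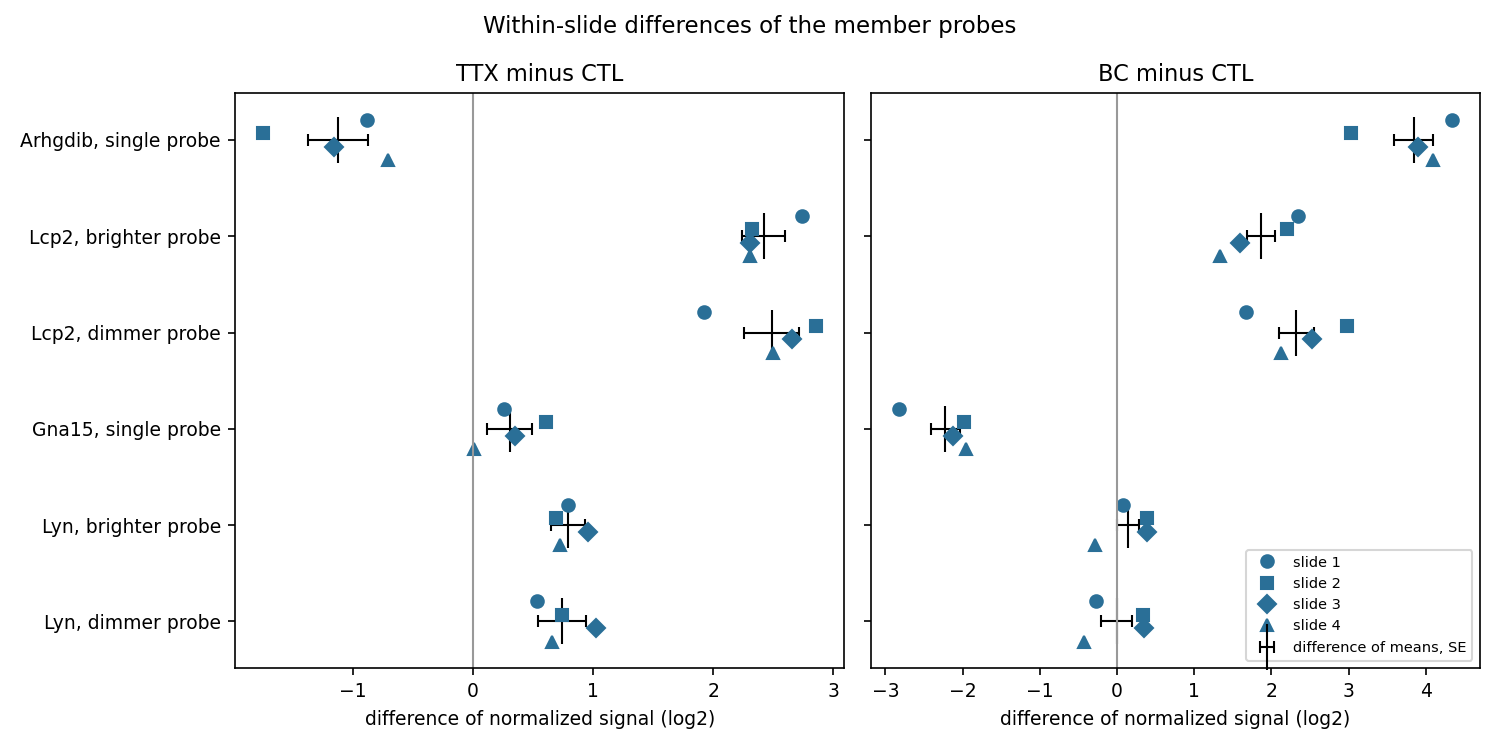
Differences (log2) of TTX minus CTL and BC minus CTL for each member probe, taken between the arrays of 1 slide (4 symbols) and between the group means (black bar, with SE). For Arhgdib, both Lcp2 probes and the Gna15 decrease with BC, all 4 slides lie on the same side of 0, as they do for both Lyn probes with TTX.

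A gene was called here where the false discovery rate, adjusted over all probes, was under 0.05 and the levels differed 1.5-fold or more in either direction. By its brightest probe, 3 of the 4 genes were called with TTX (Lcp2 and Lyn higher, Arhgdib lower), where 4.18% of all genes were. With BC 3 were called (Arhgdib and Lcp2 higher, Gna15 lower), where 3.60% of all genes were. Between TTX and BC 3 were called (Gna15 and Lyn higher and Arhgdib lower with TTX), where 10.9% of all genes were. Nothing is read from these counts, since the same contrasts chose the genes. With the normexp background model 2 were called with TTX, as Arhgdib then differed 1.497-fold, and with the arrays of each slide set averaged 1 was called with TTX (Lcp2) and 0 with BC.

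How the scanner background was treated set the size of the differences for the dimmer signals. With the normexp model in its place the Lcp2 difference with TTX was 1.01 (SE 0.08) in place of 2.42, and in the authors' deposited log2 values it was 1.13 (SE 0.09). For the dimmer Lcp2 probe the deposited values gave a TTX difference of 0.81 and a BC difference of 0.75, each with an SE of 0.06. The Gna15 difference with BC was -0.94 with normexp and -1.04 in the deposited values, and that of Arhgdib with TTX was -0.58 and -0.62. Arhgdib with BC kept 3.23 and 3.34, and the brighter Lyn probe with TTX gave 0.74 and 0.75 beside 0.79. In the deposited values too, Arhgdib and both Lcp2 probes with either treatment and Gna15 with BC did not overlap with CTL. Gna15, for example, spanned 6.05 to 6.22 with BC and 6.91 to 7.35 with CTL.

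**Figure D3:**
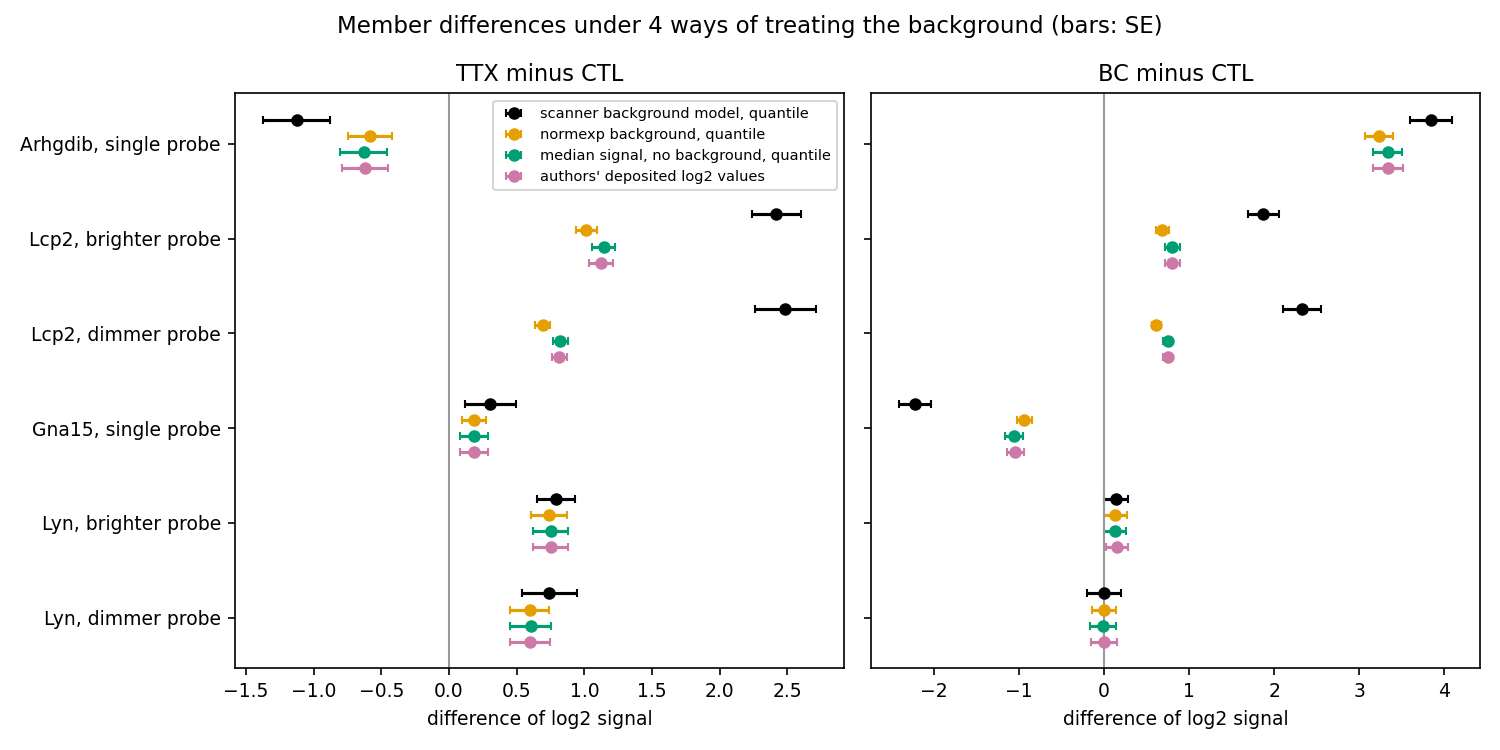
Log2 differences from CTL of each member probe with TTX (left) and BC (right) under 4 treatments of the background, with SE as bars. The direction is the same under all 4 for every difference over 0.1, and the size shrinks for Lcp2 (from 2.42 to 1.01 with TTX) and Gna15 (from -2.22 to -0.94 with BC) but little for Lyn.

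Microglia, the resident macrophages of brain, belong to the blood lineage and share many of its signaling genes, so their markers were read on the same arrays. Of 24 markers, 20 were measured by name, 11 of them well above background on all 12 arrays, 4 on none and 5 on some. Aif1 (the Iba1 gene) and Itgam (CD11b) were well above background on 0 arrays, as were the transcription factor gene Spi1 and Siglech, and Cx3cr1, Tmem119 and Fcgr3a were so on 1 and C1qa on 2. Ptprc is not among the names on the array, but 3 probes are described as CD45 in the files. One of these was well above background on all 12 arrays, at 5.40 to 6.04 in log2 units with overlapping groups, and the other two on 0.

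Other myeloid transcripts were present on all 12 arrays. Csf1r, the colony-stimulating factor receptor of microglia, read 5.32 to 5.72 with CTL, 5.00 to 6.00 with TTX and 4.61 to 6.12 with BC. Cd68, a lysosomal protein gene, read 8.24 to 8.60 with CTL, 7.70 to 8.17 with TTX and 7.92 to 8.12 with BC, so both treatments lay below CTL, with differences of -0.51 (adjusted p = 0.014, limma) and -0.43 (adjusted p = 0.037), under the fold threshold. Tyrobp, C1qb, C1qc, Laptm5, Cd14, Trem2 and P2ry12 were also well above background on all 12 arrays, and none of them was called against CTL. Between TTX and BC, 3 of the 20 markers were called higher and 1 lower with TTX, 20% beside 10.9% of all genes. These included P2ry12 (0.89, adjusted p = 0.0058, limma) and Trem2 (-0.71, adjusted p = 0.010, limma).

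With TTX 2 of the 20 markers were called, both higher, and with BC 1, lower, shares of 10% and 5% where 4.18% and 3.60% of all genes were. Adgre1, a macrophage surface receptor gene, rose by 1.40 (SE 0.13, adjusted p = 0.00013, limma) with TTX and fell by 0.82 (SE 0.13, adjusted p = 0.0037) with BC. It read 5.90 to 6.48 with CTL, 7.48 to 7.76 with TTX and 5.24 to 5.68 with BC, so the groups did not overlap and stood in the reverse of the order of Arhgdib. Ctss, the cathepsin S gene, rose by 0.77 (SE 0.16, adjusted p = 0.012) with TTX and was 0.22 lower with BC (adjusted p = 0.56). The probes that the array names Fcgr3 belong to an accession now named Fcgr2a and are not in the list, and the brightest of them read lower with both treatments, by differences of -0.65 with TTX (adjusted p = 0.0095) and -0.73 with BC (adjusted p = 0.0060).

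The median difference over the 20 markers was 0.05 with TTX and -0.03 with BC, beside 0.01 and -0.01 over all genes. The summed linear signal of 19 of them spanned 1446 to 1623 with CTL, 1487 to 1785 with TTX and 1337 to 1550 with BC, so all groups overlapped. Beside these values the BC difference of Arhgdib was 14.3-fold, and those of Lcp2 were 5.35-fold with TTX and 3.66-fold with BC. The part of microglia in these differences was not tested.

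**Figure D4:**
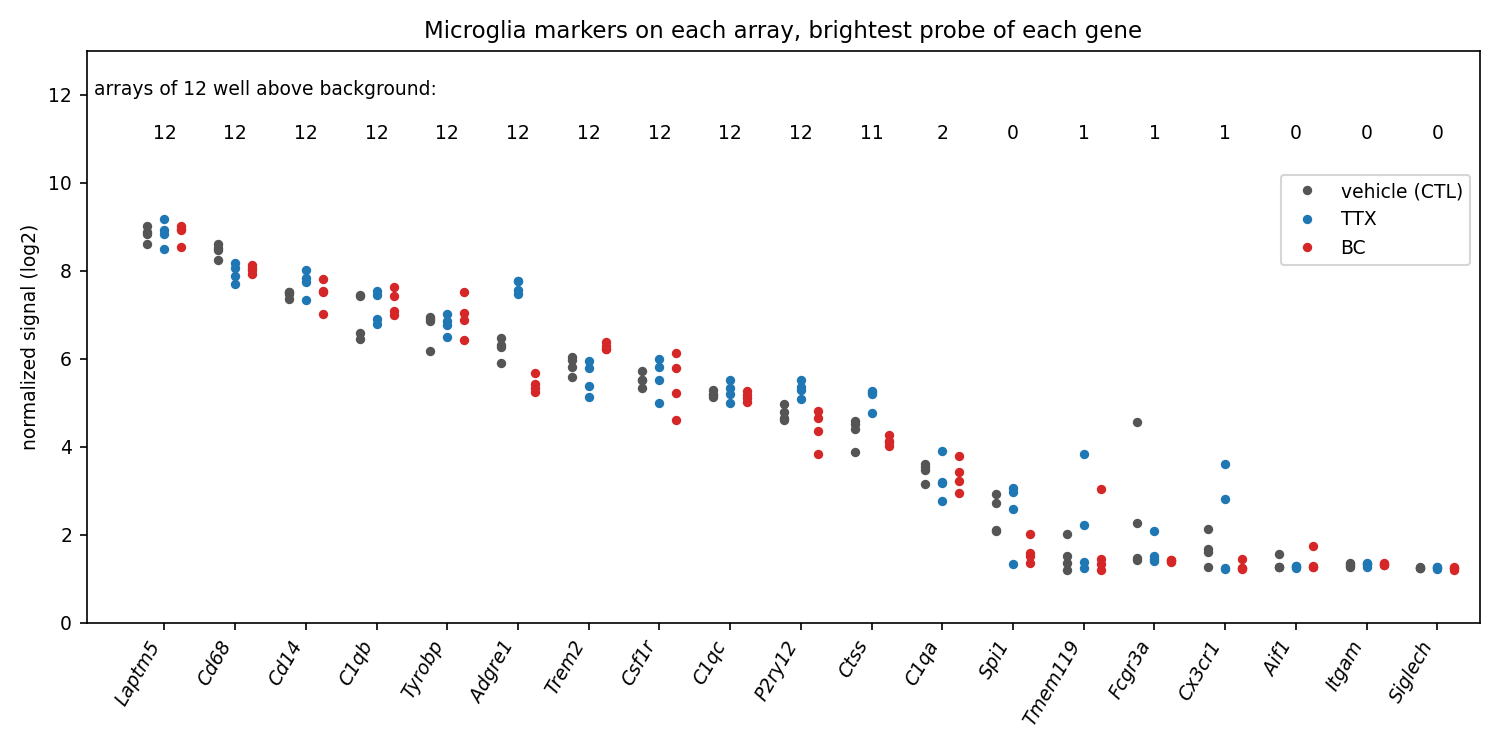
Normalized signal (log2) of the brightest probe of 19 microglia markers on each CTL, TTX and BC array, ordered by mean, with the number of the 12 arrays well above background on top. Adgre1 separates the 3 groups (7.48 to 7.76 with TTX), while Aif1, Itgam, Spi1 and Siglech are well above background on 0 arrays.

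Markers of other cells were counted in the same way. Of the lymphoid list 1 of 10 genes, of the granulocyte and mast cell list 2 of 8 and of the red cell and platelet list 2 of 5 were well above background on all 12 arrays. In these lists Cd5 alone was called (BC difference 0.84, adjusted p = 0.022, limma), with 0 arrays well above background. All 6 neuron markers, 6 astrocyte markers and 7 oligodendrocyte lineage markers were well above background on all 12 arrays, as were 8 of 11 markers of endothelial, mural and fibroblast cells.

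In the last list 3 of 11 genes were called lower with TTX and 3 higher with BC (27.3% each, beside 4.18% and 3.60% of all genes), and the median difference was 0.00 with TTX and 0.32 with BC. Its summed linear signal spanned 11826 to 14735 with CTL, 8618 to 10054 with TTX and 19290 to 26140 with BC, and Lum and Dcn together made up 42.9% to 76.8% of it on each array. Lum and Dcn, genes of small proteoglycans made by fibroblasts, fell by 0.98 (adjusted p = 0.00017, limma) and 0.62 (adjusted p = 0.0017) with TTX and rose by 0.85 (adjusted p = 0.00041) and 0.87 (adjusted p = 0.00025) with BC. Cldn5, an endothelial tight junction gene well above background on 2 of 4 CTL arrays and 4 of 4 BC arrays, rose by 1.65 with BC (adjusted p = 0.0067), a call lost with normexp, where the difference was 0.46. Rgs5, a pericyte gene, was the third gene called lower with TTX, but it was well above background on 2 of 4 CTL arrays and 0 of 4 TTX arrays, so no fold is given, and its call was lost with normexp. Pecam1, Cdh5, Flt1, Kdr, Pdgfrb, Col1a1 and Col1a2 were not called with either treatment, with TTX differences from -0.01 to 0.44. Their BC differences ran from -0.48 (Pecam1) to 1.67 (Col1a2, SE 0.82), and the within-slide BC differences of Col1a2 from 0.53 to 4.92. Pecam1, which also gave the TTX difference of 0.44, was well above background on 0 arrays. The part of such cells in the Arhgdib values was not tested.

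In the oligodendrocyte lineage list of 7 genes 1 was called higher and 1 lower with TTX, 28.6% beside 4.18% of all genes. The higher one is not reported here. The lower one, Pdgfra, a marker of the precursors, fell by 0.79 (adjusted p = 0.013, limma), a call lost with normexp, where the difference was -0.36. The list as a whole did not follow Pdgfra, as its median difference was 0.30 with TTX and 0.02 with BC. Its summed linear signal spanned 30733 to 49904 with CTL, 42571 to 68697 with TTX and 36891 to 45155 with BC, so the groups overlapped. The neuron and astrocyte lists held 0 genes called against CTL by limma, with an unadjusted p under 0.05 for 2 and 1 with TTX and for 1 and 0 with BC. The summed neuron signal spanned 167667 to 210835 with CTL, 182005 to 204413 with TTX and 148624 to 157665 with BC. Every BC array thus lay below every CTL array. The astrocyte sum spanned 64042 to 79918 with CTL, 66853 to 100046 with TTX and 62198 to 75760 with BC, with overlap. The part of these cells in the Lyn values was likewise not tested.

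Around the 4 members, 66 genes of their pathways were listed and 61 were measured, 51 of them well above background on all 12 arrays. Called were 4 with TTX (1 higher, 3 lower) and 4 with BC (2 higher, 2 lower), 6.56% in each case beside 4.18% and 3.60% of all genes. The median difference was 0.06 with TTX and 0.02 with BC.

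In Arhgdib's family, 0 of 9 measured RhoGDI and small GTPase genes were called by limma with either treatment, and the unadjusted p was under 0.05 for 0 with TTX and 2 with BC. Arhgdia, the RhoGDI made by most cells, differed by -0.15 (SE 0.10) with TTX and 0.35 (SE 0.10, adjusted p = 0.051, limma) with BC. Arhgdig, the RhoGDI of brain, differed by -0.08 with TTX and by -0.47 (SE 0.09, adjusted p = 0.012) with BC, under the fold threshold and opposite in sign to Arhgdib. Cdc42 and Rac1, GTPases that RhoGDIs bind, differed by at most 0.07 in size in both comparisons.

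Of Lcp2's partners, 4 of 22 measured genes were called with BC and 1 with TTX, shares of 18.2% and 4.55% beside 3.60% and 4.18% of all genes. Blnk, the B cell adaptor of the same family as SLP-76, read 7.08, 7.23, 7.65 and 6.78 with CTL, 6.86, 6.81, 6.78 and 6.55 with TTX and 8.92, 9.30, 9.77 and 9.43 with BC, so that the BC arrays lay above all others. It rose by 2.17 (SE 0.20, adjusted p = 0.00013, limma) with BC, and the TTX difference was -0.43 (adjusted p = 0.24). Syk, the kinase that phosphorylates these adaptors, rose by 0.85 (SE 0.08, adjusted p = 0.00011) with BC, though by 0.35 with normexp and 0.39 in the deposited values, under the fold threshold, and was 0.53 below CTL with TTX (adjusted p = 0.0014, under the fold threshold).

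The other calls in that list were decreases. Skap2, a Src kinase-associated adaptor, fell by 0.96 (SE 0.08, adjusted p = 5.2e-05, limma) with BC, from 10.47 to 10.60 with CTL to 9.42 to 9.76. Sh3bp2, an adaptor that binds Syk and Vav, fell by 1.00 (SE 0.24, adjusted p = 0.026) with BC. Zap70, the Syk relative of T cells, fell by 1.13 (SE 0.31, adjusted p = 0.041) with TTX, with an adjusted p of 0.12 once the model held a block for the replicate number. Of the brightest partners, Grb2, Nck1, Plcg1 and Vav2, the first 3 did not pass the false discovery rate in either comparison, and Vav2, an exchange factor for small GTPases, was 0.56 higher with TTX (adjusted p = 0.0074), under the fold threshold.

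Lyn's relatives and regulators held 0 calls by limma among 14 measured genes by their brightest probes, and the unadjusted p was under 0.05 for 3 with TTX and 4 with BC. Fyn, the Src family kinase abundant in brain, differed by 0.08 (SE 0.06) with TTX and -0.05 (SE 0.06) with BC, and Csk, which switches off Src kinases, by -0.06 and 0.02 (SE 0.07 for both). Matk, the Csk homologue of brain, differed by -0.26 with TTX (adjusted p = 0.041, limma) and -0.32 with BC (adjusted p = 0.018), and Ptpn11, the SHP-2 phosphatase gene, by -0.51 with BC (adjusted p = 0.011), all under the fold threshold. The second probe of Ptpn11 differed by -0.61 with BC (adjusted p = 0.0039) and was called. The 3 probes of Inpp5d, the SHIP-1 phosphatase gene that acts below Lyn in B cells, disagreed. Its brightest probe differed by -0.05 with TTX and -0.16 with BC, and the next by -2.01 (adjusted p = 0.0013) and 1.73 (adjusted p = 0.0034), in the direction of Arhgdib. The dimmest probe had the same signs, at -0.61 with TTX (adjusted p = 0.20, limma) and 0.67 with BC (adjusted p = 0.18), and was not called against CTL. The middle probe was singled out after its values were seen.

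By their brightest probes, Gna15's relatives held 3 calls with TTX (18.8%, beside 4.18% of all genes) and 0 with BC (beside 3.60%) by limma among 16 measured genes, 3 of which had an unadjusted p under 0.05 with BC. Gna14, another Gq class subunit, fell by 1.73 (SE 0.09, adjusted p = 2.2e-06, limma) with TTX, from 9.56 to 9.86 with CTL to 7.85 to 8.16, and its second probe fell by 1.71 (adjusted p = 0.00019). Its BC difference was 0.13 (SE 0.09), so that Gna14 differed with TTX and Gna15 with BC. Gnal, the olfactory Gs class subunit, fell by 0.64 (SE 0.10, adjusted p = 0.0028) with TTX. Gna13, which acts on exchange factors for small GTPases, rose by 0.75 (adjusted p = 0.0060, limma) with TTX at a dim signal. It was well above background on 2 of 4 TTX arrays and 0 of 4 CTL arrays, so no fold is given. Its call was lost with normexp, and its difference was as small as 0.13 under the alternatives. Of the brightest, Gnas, Gnaz, Gnao1 and Gnai3, the differences were at most 0.33 in size at the brightest probe. Second probes gave other values with BC: that of Gnas, the Gs subunit gene, differed by 0.82 (adjusted p = 0.00011) and that of Plcb1, a phospholipase C beta gene, by -0.89 (adjusted p = 0.00027), both well above background on all 12 arrays and called, where their brightest probes differed by 0.26 and 0.43 and were not.

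**Figure D5:**
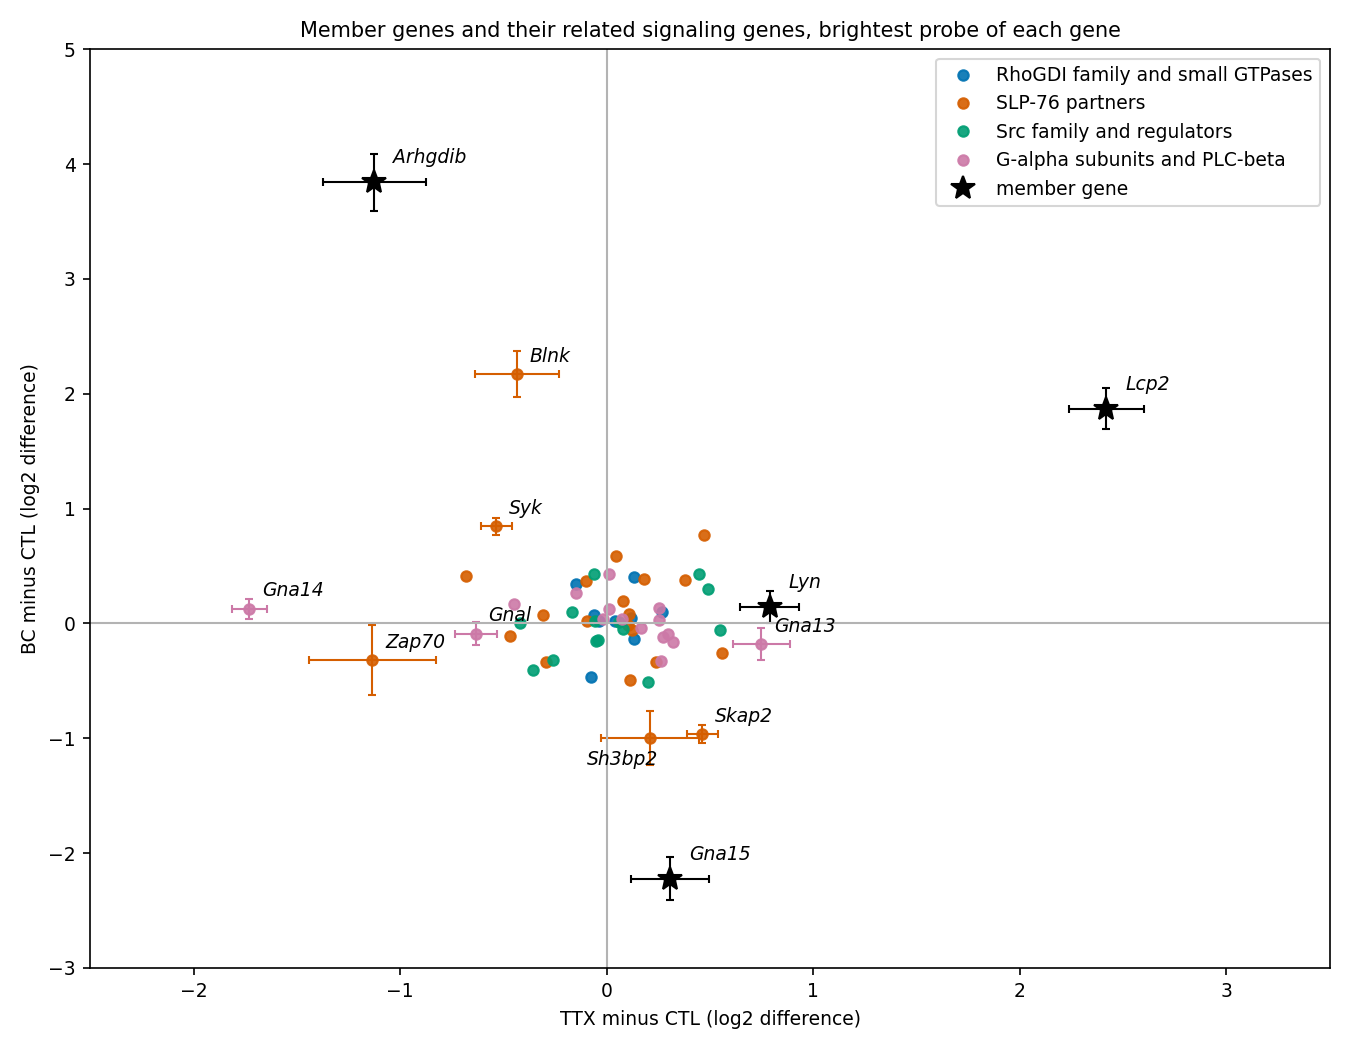
Log2 difference from CTL with TTX (horizontal) and with BC (vertical) for the 4 member genes (stars) and 61 related genes (circles, coloured by list), with SE for the members and for the related genes called in either comparison. Both axes share the CTL arrays. Arhgdib and Blnk lie at the top (3.84 and 2.17 with BC), Gna15 at the bottom (-2.22) and Lcp2 at the right (2.42 with TTX).

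Limits of these calls lie in the slides, the background and single arrays. With normexp in place of the scanner's background model, 1 related gene was called with TTX (Gna14) and 2 with BC (Blnk and Skap2), and of the microglia markers Adgre1 kept its call with TTX but not with BC (-0.39) and Ctss lost its call (0.21), as did Pdgfra (-0.36). With the arrays of each slide set averaged, 0 of 41007 probes were called with BC by limma, though 9133 had an unadjusted p under 0.05, and Blnk, Syk and Skap2 then had adjusted p values of 0.069, 0.070 and 0.069. Without CTL replicate 1 the count of related genes called with TTX was 2, since Zap70 (adjusted p = 0.091) and Gnal (log2 difference -0.58) were lost; Gnal was also lost without TTX replicate 3 (-0.57). Zap70 was lost with each of 8 single arrays left out (CTL replicates 1, 2 and 3, BC replicates 1, 3 and 4 and TTX replicates 1 and 3; adjusted p up to 0.11), and Sh3bp2 with each of 5 (CTL replicates 1 and 2 and BC replicates 2, 3 and 4; adjusted p up to 0.080). Among the other markers the same held for Cd5 with 5 arrays (CTL replicates 2 and 4 and BC replicates 1, 2 and 3; adjusted p up to 0.067), for Rgs5 with 3 (CTL replicates 1 and 2 and TTX replicate 1; adjusted p up to 0.056) and for Dcn with TTX replicate 4 (log2 difference -0.58).

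The genes whose levels followed each member most closely over the 12 arrays were taken from 11538 named genes well above background on all of them. The correlations are descriptions over 12 arrays that share treatments and slides. For Arhgdib they were Cpamd8, Nexn and Serpinf1 (Pearson r of 0.99 for each), with BC differences of 2.17, 1.73 and 2.19, all smaller than its own 3.84. Nexn encodes an actin-binding protein of muscle and Serpinf1 a secreted serpin.

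For Gna15 they included Osr1 and Cst6 (r of 0.99 and 0.98), with BC differences of -1.83 and -1.63. Osr1 encodes a transcription factor of developing tissues. For the brighter Lcp2 probe they were Arhgap15, Gfra1 and Myl9 (r of 0.96, 0.94 and 0.93), with TTX differences of 0.98, 0.58 and 1.06 and BC differences of 0.68, 0.48 and 0.69, and for the dimmer one Gask1b, Aqp9 and Ccdc65 (r of 0.96, 0.94 and 0.93). Arhgap15 encodes a GTPase-activating protein for Rac.

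For the brighter Lyn probe they included Mgst1 and Zfp24 (r of 0.97 and 0.96), with TTX differences of 0.72 and 0.33, and for the dimmer one Nat1, Thsd1 and Cpt1a (r of 0.97 for each). The lists of the paired probes of Lcp2 and Lyn shared 0 genes among the first 3.

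Over the whole series, 74.1% to 78.1% of probes were well above background on each array, and 1493 genes were called with TTX, 1286 with BC and 3881 between TTX and BC. The arrays of each group deviated by slide set: arrays of the same set had correlations of 0.20 to 0.41 between their deviations from the group means, and those of different sets -0.39 to -0.20. The sample labels do not name these sets, so the correlations describe the grouping and do not test it. With the slide as a block in the model, the differences of the members are the same by construction, and the SE of the dimmer Lcp2 probe was 0.19 in place of 0.23 and that of the dimmer Lyn probe 0.14 in place of 0.20.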

How the data were processed

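RNA of 12 samples was hybridised to 1-colour Agilent arrays, 4 each for CTL, TTX and BC. The deposited array files hold scanner intensity values made by the authors with Feature Extraction 9.5.1.1, and per the file headers each spot also has flags for signal well above background and for outliers (other values, 0 or 1). The authors also deposited log2 values, named with limma in the submitters' processing notes; 1131 of them are empty in BC replicate 2. The processed signal, already background-corrected, was put on the log2 scale and quantile-normalized over the 12 arrays, outlier spots left out. limma 3.58.1 (R 4.3.3) fitted 1 mean per group, with Benjamini-Hochberg adjustment over all probes, and was tested on simulated data. The number of arrays limits the precision.

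Gene names came from the array files, updated through RefSeq accessions, symbols and synonyms where these matched. A gene is represented by its probe with the highest mean. Named are all member probes, related genes called against CTL or among the brightest 4 of each list, microglia markers called or above background, the defining markers always, called markers of other cells, and the 3 most correlated genes of each member probe. A few genes under this rule are not reported here. The members and lists were chosen with earlier results of these data known. The CD45 probes and the Fcgr3 probes were looked up after the values were seen. The main model held no term for the slides, and blocks for the slide or the slide set were used in alternatives only. Replicate numbers pair CTL and TTX arrays (correlations of deviations 0.28 to 0.38 for same-numbered arrays) because there they follow the slide sets, while for BC they are crossed (-0.35 to -0.24 with CTL). Alternatives were other background corrections and normalizations, the deposited values, blocks, a filter on dim probes, other variance settings, averaging the probes of a gene, and omitting single arrays in turn.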

Additional observations from a re-analysis of the deposited data

Results flagged for a closer look

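In 69 groups of 4 arrays (the member probes and each called related gene or marker), 5 had 1 array far from the other three, where chance gives about 1 in 20. For the brighter Lyn probe, TTX replicate 4 read 10.16 beside 10.62 to 10.65, a gap of 0.948 of the group's range. Without that array the Lyn difference with TTX was 0.91. For Skap2, TTX replicate 4 read 11.10 beside 10.96 to 10.97 (0.880 of the range). For Ctss, TTX replicate 3 read 4.76 beside 5.19 to 5.27 (0.848). For Cldn5, BC replicate 3 read 5.71 beside 5.15 to 5.20 (0.913). For Lum, CTL replicate 4 read 12.07 beside 12.43 to 12.46 (0.929).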

How the results depend on the processing

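By their brightest probes, the 4 genes kept the sign of their differences from CTL under all alternatives run. Treating the background otherwise moved them most. With normexp, with the median signal and no correction, and in the deposited values, in that order, Arhgdib differed by -0.58, -0.63 and -0.62 with TTX and by 3.23, 3.33 and 3.34 with BC, Lcp2 by 1.01, 1.14 and 1.13 with TTX and by 0.68, 0.80 and 0.80 with BC, and Gna15 by -0.94, -1.06 and -1.04 with BC. Under each of these 3 settings 1 related gene and 1 microglia marker were called with TTX, and 2 related genes and 0 microglia markers with BC. With the arrays of a slide set averaged, 2 related genes and 1 marker were called with TTX and 0 and 0 with BC. Leaving out 1 array at a time gave 2 to 5 related genes with TTX and 3 to 5 with BC, and 2 to 3 and 1 to 1 microglia markers. The members' differences then ranged from -1.33 to -0.88 (TTX) and 3.64 to 4.10 (BC) for Arhgdib, 2.28 to 2.53 and 1.74 to 1.99 for Lcp2, 0.17 to 0.42 and -2.36 to -2.12 for Gna15 and 0.70 to 0.91 and 0.06 to 0.22 for Lyn.

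With the replicate number as a block, 3 related genes were called with TTX and 4 with BC, and 2 and 1 microglia markers; the SE of Arhgdib was 0.24, of Gna15 0.11 and of Lyn 0.17, with unchanged differences. Zap70 was no longer called, and no other related gene or microglia marker lost its call under this block. With normexp Arhgdib was no longer called with TTX. Signal close to background limits the sizes for Lcp2, for Arhgdib with TTX and for Gna15 with BC: their log2 differences depend on how much background is subtracted, and no size is more exact than the range given.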
